A study of Mus musculus with 12 samples.

Results

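Genes of the integrated stress response, 9 in all, were followed through the RNA-seq libraries: the transcription factor Atf4, its relatives and partners Cebpg, Cebpb, Atf3 and Atf5, the downstream factors Ddit3 (Chop) and Nupr1, and the feedback genes Trib3 and Ppp1r15a (Gadd34). They were chosen by name, with earlier results of these data known, as 9 of the 55536 annotated features in the count table, and all 9 were found there. The libraries came from splenic B cells of 3 control mice and 3 Pdap1-deficient mice on a C57BL/6 background. Both genotypes carry a Cre allele, so the controls share it, and in the Pdap1-deficient mice, which also carry floxed Pdap1 (Pdap1F/F), Cre removed the floxed exon in the animal and not at the time of culture. Every mouse gave a culture in LPS plus IL-4 (LPS-IL-4), which directs class switching to IgG1, and another in LPS plus BAFF plus TGFβ (LPS-BAFF-TGFβ), which directs it to IgG2b, and RNA was taken after 48 h, giving 4 groups of 3 libraries. The labels also name CH12, a B lymphoma line, as the cell line of every library, whereas the study's methods describe primary B cells isolated from spleen by removal of CD43+ cells, and those were taken as the source. The age and sex of the mice behind each library were not given in the sources used here.

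The integrated stress response starts when eIF2 kinases phosphorylate the translation factor eIF2α, which lowers general protein synthesis while the Atf4 mRNA is translated better. Atf4 protein binds DNA as a dimer with C/EBP family members, Cebpg among them, and turns on genes for amino acid supply together with further factors, which include Ddit3, Atf3, Atf5, Nupr1 and Trib3. Ppp1r15a closes the loop by bringing protein phosphatase 1 to eIF2α, and Trib3 acts on Atf4 and Ddit3 activity. The libraries measured mRNA, so they carry no direct information on eIF2α phosphorylation or on the amount of any protein.

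Library totals ran from 9386667 to 15869143 counts under LPS-IL-4 and from 4579793 to 8303482 under LPS-BAFF-TGFβ, except for control mouse 1 with LPS-BAFF-TGFβ, which had 69500640. Pdap1 itself was counted at 91.2 to 97.6 CPM (counts scaled to a common library total) in the control LPS-IL-4 libraries and at 23.3 to 29.9 in the Pdap1-deficient ones. With LPS-BAFF-TGFβ the controls gave 198, 80.1 and 100.1 CPM, the first being the deep library, and the Pdap1-deficient libraries 22.9 to 26.4. The genotypes did not overlap in either stimulation, although the edgeR adjusted p with LPS-BAFF-TGFβ was 0.0929. B cell markers summed to 2914 to 3948 CPM in every library. Myeloid markers (11 genes, of which Elane was at 0 in all 12 libraries and Ly6g and Mpo under 1 CPM) summed to 9.07 to 28.4 CPM in the controls, to 331 and 563 CPM in the cultures of Pdap1-deficient mouse 2, to 38.6 and 80.0 in those of mouse 3 and to 12.1 and 15.5 in those of mouse 1. T cell markers summed to at most 30.8 CPM and NK cell markers to at most 4.67. Erythroid markers summed to 8.17 to 11.1 CPM in the controls, to 9.79 and 11.3 CPM in the cultures of Pdap1-deficient mouse 1 and to 20.004 to 24.0 CPM in the 4 cultures of mice 2 and 3. The part of these cells in the results was not tested, and results in which mouse 2 stands apart are given with and without it. In bulk RNA, a change in the share of cells that express a gene and a change in its amount per cell cannot be told apart.

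The promoters of the 9 genes were searched for 2 sequence elements because several of these genes are known to be Atf4 targets. The first was TGATGNAA, the core of the C/EBP-Atf response element (CARE) that Atf4 binds with a C/EBP partner, and the second was TGACGTCA, the cAMP response element (CRE) that ATF and CREB dimers bind. Both were read on both strands from 250 bases before to 50 bases after the RefSeq start (GRCm38.p6), and the 2 motifs share no match. CARE cores were present in 3 of the 10 member promoters (Atf5 has 2), those of Atf3, Nupr1 and Trib3, against 3.97% of all 32851 promoters, and a CRE was present in 1, that of Ppp1r15a, against 1.79%. The stretches around the 4 matches are shown 5′ to 3′ on the strand of each gene, the minus strand in all 4, with the match in capitals. TTGCATCA and TTACATCA are the CARE core read on the other strand.
Atf3, chr1:191183341-191183583, match 110 bases upstream of the start: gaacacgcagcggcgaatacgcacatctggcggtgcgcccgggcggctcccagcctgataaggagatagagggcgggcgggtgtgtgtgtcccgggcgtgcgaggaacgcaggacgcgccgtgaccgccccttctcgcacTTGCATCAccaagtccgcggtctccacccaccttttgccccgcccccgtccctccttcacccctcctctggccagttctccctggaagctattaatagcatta
Nupr1, chr7:126625563-126625590, match 110 bases upstream of the RefSeq start but inside an exon of a GENCODE transcript: aagggccagaTTGCATCAgacagggctt
Trib3, chr2:152344029-152344056, match 14 bases downstream of the start: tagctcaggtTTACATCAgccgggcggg
Ppp1r15a, chr7:45526269-45526329, match 12 bases upstream of the start: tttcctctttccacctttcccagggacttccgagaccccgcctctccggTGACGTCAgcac
These are matches of letters and not measured binding sites, and the other 5 members had neither element in this window. Distances are from the RefSeq start. By GENCODE the Trib3 match (152344039-152344046) lies upstream of the gene, whose minus-strand span begins at 152344032. The Atf3 match lies inside the GENCODE span of Atf3, which runs to 191218039. For comparison, a list of Atf4 target enzymes and transporters held a CARE core in 6 of its 21 promoters. Counted by gene, this was 6 of the 17 that had a promoter.

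**Figure D1:**
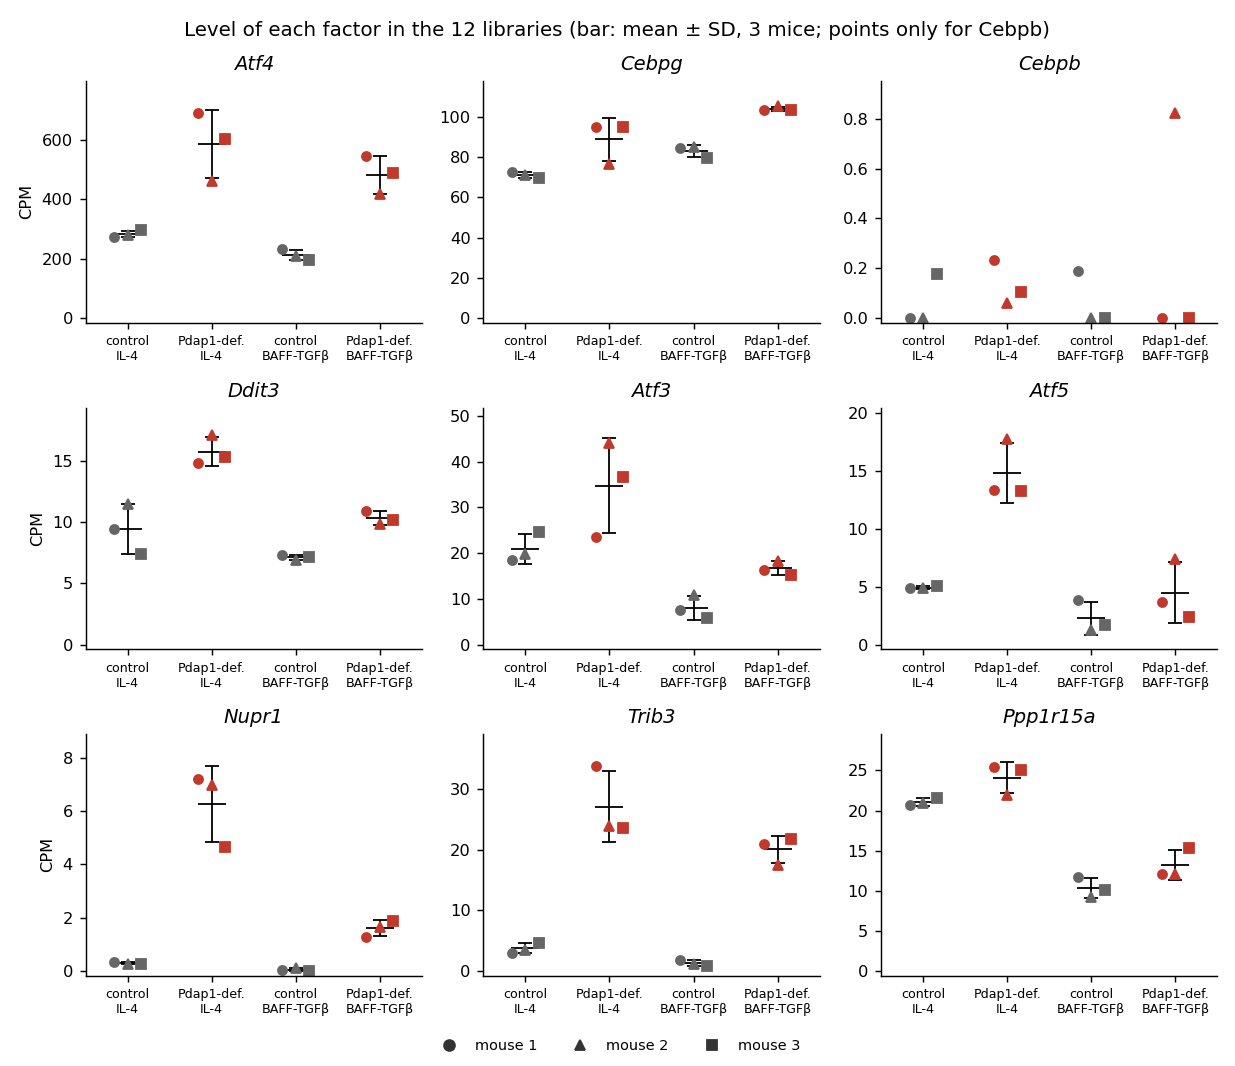
CPM (y axis, from 0, a scale of its own in each panel) of the 9 genes in the 4 groups of 3 mice, with control libraries in grey, Pdap1-deficient libraries in red, the symbol shape giving the mouse number, and bars the mean ± SD. Atf4, Ddit3, Cebpg, Nupr1, Trib3 and Ppp1r15a are higher in every Pdap1-deficient library than in any control library of the same stimulation, whereas Cebpb stays under 1 CPM in all 12.

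Levels were first compared between the genes as CPM per kb of exon. In control LPS-IL-4 cultures Atf4 was at 120.1 ± 4.52 CPM per kb (SD, n = 3), followed by Cebpg (12.7 ± 0.273), Atf3 (9.74 ± 1.52), Ppp1r15a (7.17 ± 0.170), Ddit3 (5.52 ± 1.18), Atf5 (2.47 ± 0.0648) and Trib3 (1.75 ± 0.386). Nupr1 (0.114 ± 0.0145) and Cebpb (0.0388 ± 0.0671) came last, and they were the only neighbours in this order whose mice overlapped. Atf4 also came first in the other 3 groups. Trib3 moved from place 7 in the controls of both stimulations to place 4 in Pdap1-deficient cells with LPS-IL-4 (12.7 ± 2.77 CPM per kb) and to place 3 with LPS-BAFF-TGFβ (9.44 ± 1.06), where its mice overlapped with those of its neighbour Cebpg in the first case and Atf3 in the second.

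The effect of Pdap1 deficiency was tested within each stimulation with edgeR's quasi-likelihood test over all genes, with Benjamini-Hochberg adjustment. With LPS-IL-4, 8 of the 9 members passed the filter on low counts and 5 of them rose: Atf4, Ddit3, Atf5, Nupr1 and Trib3. Across the 15074 genes tested, 2.79% were called higher and 2.12% lower in the Pdap1-deficient cells. With LPS-BAFF-TGFβ, 7 members were tested and 2 rose, Atf4 and Trib3, where 0.455% of the 14079 genes tested were called higher and 0.0071% lower. No member was called lower in either stimulation. Nupr1 passed the filter with LPS-IL-4 only through its Pdap1-deficient libraries and was filtered out with LPS-BAFF-TGFβ, and Cebpb was filtered out in both. Trib3 with LPS-BAFF-TGFβ had 111, 10 and 7 counts in the controls, and it too needed its Pdap1-deficient libraries to pass. Over the members tested the median log2 fold change came to 0.88 in LPS-IL-4 cultures and 0.83 in LPS-BAFF-TGFβ cultures, beside 0.02 and 0.01 for all genes tested.

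Every Pdap1-deficient library lay above every control library for 7 of the 8 members tested with LPS-IL-4, all but Atf3, where 15.5% of all genes tested did so. With LPS-BAFF-TGFβ the same was true of 6 of the 7 tested, all but Atf5, where 9.55% of all genes did so. This separation by sample is a weaker criterion than the adjusted p: Cebpg and Ppp1r15a met it in both stimulations without passing the test. For a single gene, the smallest two-sided p that an exact permutation of 3 and 3 mice can reach is 0.1.

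Atf4 (ENSMUSG00000042406, chr15:80255184-80257541, plus strand, no exon shared with another gene) is the central factor of the response. With LPS-IL-4 its level was 274, 281 and 295 CPM in control mice 1 to 3 and 691, 463 and 601 CPM in Pdap1-deficient mice 1 to 3. The lowest Pdap1-deficient library, that of mouse 2, was at 163% of the control mean and the highest, that of mouse 1, at 244%. The log2 fold change was 1.04 ± 0.15 (SE, 95% interval 0.71 to 1.37, edgeR adjusted p = 0.00561). With LPS-BAFF-TGFβ Atf4 was at 231, 209 and 197 CPM in the controls and 544, 416 and 488 CPM in the Pdap1-deficient libraries. Mouse 2 was again the lowest of the 3 and mouse 1 the highest. The log2 fold change was 1.19 ± 0.13 (95% interval 0.90 to 1.49, edgeR adjusted p = 0.00390). The difference stayed between 0.89 and 1.27 in every alternative fitted for either stimulation, while the LPS-IL-4 call was lost without each of the controls in turn: without control mouse 1, 2 or 3 with LPS-IL-4 the adjusted p was 0.0533, 0.0658 or 0.0616, and without control mouse 3 with LPS-BAFF-TGFβ it was 0.0568.

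Cebpg (ENSMUSG00000056216, chr7:35046422-35056573, minus strand), a C/EBP protein that pairs with Atf4, did not pass the test in either stimulation. With LPS-IL-4 the controls were at 72.7, 70.9 and 69.7 CPM and the Pdap1-deficient libraries at 95.3, 76.6 and 94.98. With LPS-BAFF-TGFβ the values were 84.5, 85.2 and 79.7 CPM against 103, 105 and 103. All Pdap1-deficient libraries lay above the controls, at 108% to 134% of the mean of the controls under LPS-IL-4 and 124% to 127% under LPS-BAFF-TGFβ. In log2 units Cebpg differed by 0.31 ± 0.12 under LPS-IL-4 (95% interval 0.06 to 0.57, edgeR adjusted p = 0.136) and 0.33 ± 0.10 under LPS-BAFF-TGFβ (0.10 to 0.56, adjusted p = 0.330). It was called in 1 alternative: without Pdap1-deficient mouse 2 the LPS-IL-4 value was 0.43 with an adjusted p of 0.00420.

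Cebpb (ENSMUSG00000056501, chr2:167688915-167690418, plus strand), the C/EBP factor that works with Atf4 and Ddit3 in many other cells, had almost no counts in these libraries. Its counts were 0, 0 and 2 in the control LPS-IL-4 libraries and 3, 1 and 1 in the Pdap1-deficient ones, then 12, 0 and 0 in the control LPS-BAFF-TGFβ libraries and 0, 4 and 0 in the Pdap1-deficient ones. The 12 counts came from the deep library, where they make 0.190 CPM, and the 4 counts from mouse 2. Jund and Ppp1ca, which most cells express, had only 1 and 10 counts over the 12 libraries, so counts near 0 in this table cannot be told apart from reads lost in counting. Cebpb reached at most 0.823 CPM, no fold change is given, and 312 bases of its exon lie opposite an exon of Tmem189.

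Ddit3 (ENSMUSG00000025408, chr10:127290774-127296288, plus strand) encodes Chop, a partner-binding factor tied to prolonged stress. With LPS-IL-4 it was at 9.45, 11.5 and 7.43 CPM in the controls and 14.8, 17.1 and 15.3 CPM in the Pdap1-deficient libraries. The groups did not overlap, and the log2 fold change was 0.73 ± 0.18 (95% interval 0.33 to 1.12, edgeR adjusted p = 0.0454). This call lies near the threshold: it was lost without control mouse 1, 2 or 3 (adjusted p 0.162, 0.0932 and 0.183) or Pdap1-deficient mouse 3 (0.120). With LPS-BAFF-TGFβ the values were 7.33, 6.92 and 7.17 CPM against 10.9, 9.88 and 10.2. Here too each Pdap1-deficient library was above each control, but the difference of 0.54 ± 0.18 did not pass the test (95% interval 0.12 to 0.96, adjusted p = 0.371). A second Ensembl gene named Ddit3, on the same strand with 105 bases of shared exon, had 0 counts in all libraries, and 68 bases lie opposite Mars.

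Atf3 (ENSMUSG00000026628, chr1:191170296-191218039, minus strand), an early stress factor, was at 18.4, 19.8 and 24.7 CPM in the control LPS-IL-4 libraries and at 23.6, 44.1 and 36.6 CPM in the Pdap1-deficient ones. Pdap1-deficient mouse 1 lay within the control range and mouse 2 was the highest. The log2 fold change of 0.72 ± 0.21 did not pass the test (95% interval 0.25 to 1.19, edgeR adjusted p = 0.0799). It was 0.52 (adjusted p = 0.126) without mouse 2 and 0.92 (adjusted p = 0.0106) without mouse 1. With LPS-BAFF-TGFβ the controls were at 7.52, 10.8 and 5.71 CPM and the Pdap1-deficient libraries at 16.4, 18.3 and 15.3. The groups did not overlap and the difference was 1.07 ± 0.24 (95% interval 0.52 to 1.62), again without passing the edgeR test (adjusted p = 0.156). Without mouse 2 it was 0.97 ± 0.28 (adjusted p = 0.635). DESeq2 called Atf3 in both stimulations (adjusted p = 0.0230 and 0.0222). No myeloid marker of the 4 tested was called in either stimulation by edgeR, by DESeq2 or at an unadjusted p under 0.05. All 4 nevertheless had positive log2 fold changes, with a median of 3.16 under LPS-IL-4 and 2.47 in the other stimulation. Lyz2, for one, was at 4.37 ± 2.19 under LPS-IL-4, so a missing call does not show equal myeloid content. Itgam, Csf3r, S100a8 and S100a9 did not pass the filter. They reached 11.9 to 57.6 CPM in the cultures of Pdap1-deficient mouse 2 and at most 2.57 in any other library. Myeloid marker sums were highest in the same 2 cultures of mouse 2, and the part of this in the Atf3 values was not tested.

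Atf5 (ENSMUSG00000038539, chr7:44812256-44816658, minus strand), a relative of Atf4 whose mRNA is also translated under stress, was at 4.85, 4.85 and 5.07 CPM in the control LPS-IL-4 libraries. The Pdap1-deficient libraries were at 13.4, 17.8 and 13.3 CPM. That is 2.99-fold higher (log2 fold change 1.58 ± 0.17, 95% interval 1.20 to 1.96, edgeR adjusted p = 0.00132), and the difference was 1.44 without mouse 2 (adjusted p = 0.000115), the library with the most myeloid marker counts. With LPS-BAFF-TGFβ the controls were at 3.85, 1.21 and 1.70 CPM and the Pdap1-deficient libraries at 3.70, 7.41 and 2.34. The groups overlapped, and the difference of 0.83 ± 0.53 came with a wide interval of -0.39 to 2.05 (adjusted p = 0.573). It was 0.27 without Pdap1-deficient mouse 2 and 1.56 without the deep library of control mouse 1, so the LPS-BAFF-TGFβ value depended on single libraries. Apart from the deep library, these libraries held only 10 to 36 counts of Atf5. Exons of Nup62 and Il4i1 lie opposite 82 bases of its exons.

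Nupr1 (ENSMUSG00000030717, chr7:126623249-126630861, minus strand), a small chromatin-associated stress protein, had counts near 0 in the controls and a clear signal in the Pdap1-deficient cells. With LPS-IL-4 it had 4, 3 and 3 counts in the controls (0.329, 0.269 and 0.262 CPM) and 93, 115 and 44 counts in the Pdap1-deficient libraries (7.22, 6.97 and 4.64 CPM). The edgeR log2 fold change was 4.40 ± 0.34 (95% interval 3.65 to 5.15, adjusted p = 0.000138), and the ratio of pooled counts per total was 23.1 (95% interval 12.4 to 48.7, from counting error alone). With LPS-BAFF-TGFβ the controls had 3, 1 and 0 counts and the Pdap1-deficient libraries 8, 8 and 16. This was too low for the filter, and the ratio of pooled counts was 34.7 with a counting interval of 12.3 to 135. In the fit without a filter the log2 fold change was 4.71 ± 0.87 (edgeR adjusted p = 0.000178), and DESeq2 gave 4.95 (adjusted p = 0.00176). No exon of another gene overlaps Nupr1.

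Trib3 (ENSMUSG00000032715, chr2:152337422-152344032, minus strand), a pseudokinase that restrains Atf4 and Ddit3, had the lowest adjusted p of the members in each stimulation. With LPS-IL-4 it was at 3.04, 3.501 and 4.64 CPM in the controls and 33.9, 23.8 and 23.5 CPM in the Pdap1-deficient libraries. Each Pdap1-deficient library was at 632% to 909% of the control mean (log2 fold change 2.85 ± 0.22, 95% interval 2.38 to 3.33, edgeR adjusted p = 0.000134). With LPS-BAFF-TGFβ the controls were at 1.76, 1.21 and 0.851 CPM and the Pdap1-deficient libraries at 20.9, 17.5 and 21.8 CPM. The spread ran from 1373% to 1707% of the control mean (log2 fold change 3.86 ± 0.27, 95% interval 3.24 to 4.48, edgeR adjusted p = 0.000231). Trib3 passed the test in every alternative of both comparisons that could test it, the exception being the demand for 10 counts in every library with LPS-BAFF-TGFβ, which removed it.

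Ppp1r15a (ENSMUSG00000040435, chr7:45522916-45526268, minus strand), the phosphatase subunit that reverses eIF2α phosphorylation, was not called higher, unlike Trib3. With LPS-IL-4 it was at 20.6, 20.9 and 21.6 CPM in the controls and 25.4, 21.9 and 25.0 CPM in the Pdap1-deficient libraries. With LPS-BAFF-TGFβ it was at 11.7, 9.23 and 10.1 CPM against 12.1, 12.1 and 15.3. The Pdap1-deficient libraries were above the controls by small margins, and the log2 fold changes were 0.19 ± 0.12 (95% interval -0.08 to 0.45, edgeR adjusted p = 0.377) and 0.35 ± 0.19 (-0.08 to 0.79, adjusted p = 0.527). The upper ends of these intervals lie under a log2 fold change of 1. None of the alternatives fitted for either stimulation called it.

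**Figure D2:**
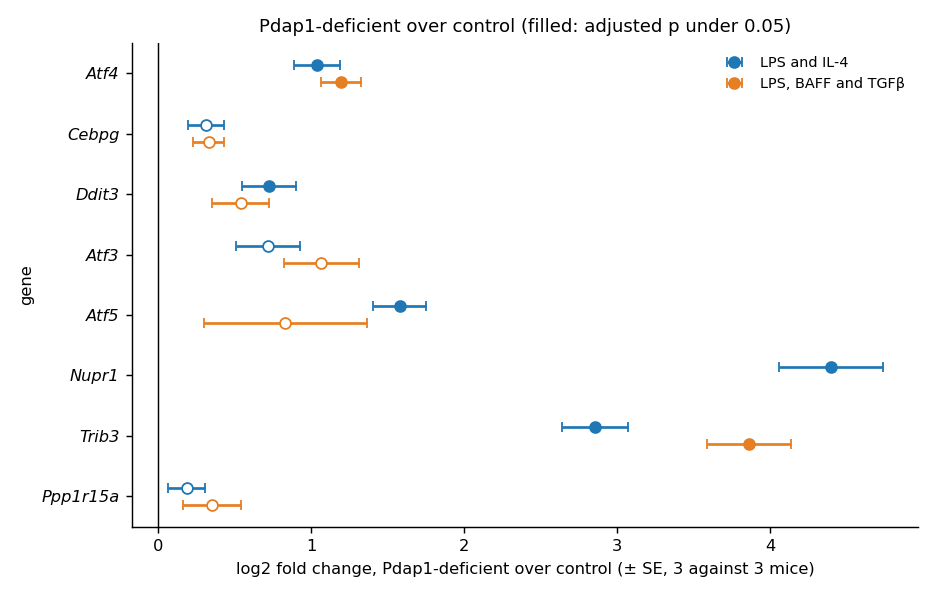
Log2 fold change of Pdap1-deficient over control (x axis, ± SE, 3 against 3 mice) of the 8 genes (y axis) tested with LPS and IL-4 (blue) or with LPS, BAFF and TGFβ (orange), with filled points for an edgeR adjusted p under 0.05. Atf4 and Trib3 are filled in both, Ddit3, Atf5 and Nupr1 with LPS-IL-4 alone, and Cebpg, Atf3 and Ppp1r15a in neither.

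The order of the 3 Pdap1-deficient mice differed from gene to gene. Mouse 2 had the lowest Atf4 in both stimulations, yet the highest Atf5 and Atf3 in both, and with LPS-IL-4 also the highest Ddit3. Mouse 1 had the highest Atf4 in both stimulations, and with LPS-IL-4 also the highest Trib3, Nupr1, Cebpg and Ppp1r15a. Atf5 and Atf3 were the members highest in mouse 2 in both cultures, and mouse 2 was also the mouse with the most myeloid marker counts in both.

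The culture condition was then compared within each genotype, as LPS-BAFF-TGFβ over LPS-IL-4, with cells of the same mouse in both arms. The main fit had no term for the mouse, so its SE and adjusted p leave this pairing out. In control cells 4 of the 7 members tested were lower with LPS-BAFF-TGFβ, Atf3, Trib3, Ppp1r15a and Atf4, and none was called higher, where 9.33% of the 14882 genes tested were called lower and 9.99% higher. In Pdap1-deficient cells 5 of the 8 tested were lower, Ddit3, Atf3, Atf5, Nupr1 and Ppp1r15a, and none was called higher, where 5.89% of the 14617 genes tested were called lower and 5.57% higher. The median log2 fold change of the members tested was -0.98 in control and -0.73 in Pdap1-deficient cells, beside 0.03 and -0.00255 for all genes tested. Both comparisons use the same cultures as the genotype comparisons.

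Ppp1r15a and Atf3, which were not called by genotype in the main edgeR fits, were called by stimulation in both genotypes. Some edgeR alternatives did call Atf3 by genotype. Ppp1r15a fell by 1.01 ± 0.14 on the log2 scale in control cells (edgeR adjusted p = 0.00141) and by 0.86 ± 0.15 in Pdap1-deficient cells (0.00537). In each mouse its level with LPS-BAFF-TGFβ was 44.1% to 61.3% of that with LPS-IL-4. Atf3 fell by 1.39 ± 0.24 in control cells (edgeR adjusted p = 0.00428) and by 1.06 ± 0.22 in Pdap1-deficient cells (0.0130), the second call being lost without the Pdap1-deficient LPS-IL-4 library of mouse 3 (adjusted p = 0.0567) or the LPS-BAFF-TGFβ library of mouse 1 (0.0664) or mouse 3 (0.0702). Nupr1 fell by 1.96 ± 0.31 in Pdap1-deficient cells (edgeR adjusted p = 0.00274) and was too low to test in controls.

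Atf4 itself differed less between the cultures. Its LPS-BAFF-TGFβ level was 66.7% to 84.4% of the LPS-IL-4 level in the 3 control mice and 78.7% to 90.0% in the 3 Pdap1-deficient mice, lower in 6 of 6. In control cells it fell by 0.41 ± 0.09 (edgeR adjusted p = 0.0143), a call lost with the mouse as a block (-0.42, adjusted p = 0.0615) and without the LPS-IL-4 library of control mouse 1, 2 or 3 (0.0599, 0.0658 and 0.0722) or the LPS-BAFF-TGFβ library of control mouse 3 (0.0569), and with all 12 libraries in 1 fit (0.0561). In Pdap1-deficient cells the value was -0.27 ± 0.16 (adjusted p = 0.348), and it was called with the mouse as a block (-0.26, adjusted p = 0.00389) and without the LPS-IL-4 library of mouse 2 (-0.42, 0.0310). Blocking on the mouse raised the number of all genes called in Pdap1-deficient cells from 1675 to 3854 and lowered it in control cells from 2874 to 1989.

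Trib3 fell by 1.42 ± 0.32 in control cells (edgeR adjusted p = 0.0159), a call lost without the LPS-IL-4 library of control mouse 2 (0.0517) or 3 (0.0727). In Pdap1-deficient cells its value was -0.43 ± 0.17 (adjusted p = 0.169), which was called with the mouse as a block (-0.41, 0.0228). Atf5 fell by 1.77 ± 0.37 in Pdap1-deficient cells (edgeR adjusted p = 0.0169), lost without the LPS-IL-4 library of mouse 3 (0.0583) or the LPS-BAFF-TGFβ library of mouse 1 (0.104). In controls Atf5 was at -0.98 ± 0.38 (adjusted p = 0.117), and at -1.74 (0.000294) without the deep library. Ddit3 fell by 0.61 ± 0.16 in Pdap1-deficient cells (edgeR adjusted p = 0.0342) and was at -0.40 ± 0.19 in controls (0.201). The Ddit3 call in Pdap1-deficient cells was lost with DESeq2 (0.0661) and whichever of the 6 libraries of the comparison was left out, with adjusted p values from 0.0606 to 0.107.

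Cebpg was the exception in direction. Its level was higher with LPS-BAFF-TGFβ in all 6 mice, at 108% to 138% of the LPS-IL-4 level of the same mouse, while each of the other 7 members tested was lower in every mouse. For Nupr1 in controls this rests on 4, 3 and 3 counts with LPS-IL-4 against 3, 1 and 0, too few to test. The Cebpg differences of 0.23 ± 0.08 in control cells and 0.23 ± 0.11 in Pdap1-deficient cells did not pass the test (edgeR adjusted p = 0.0877 and 0.259).

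**Figure D3:**
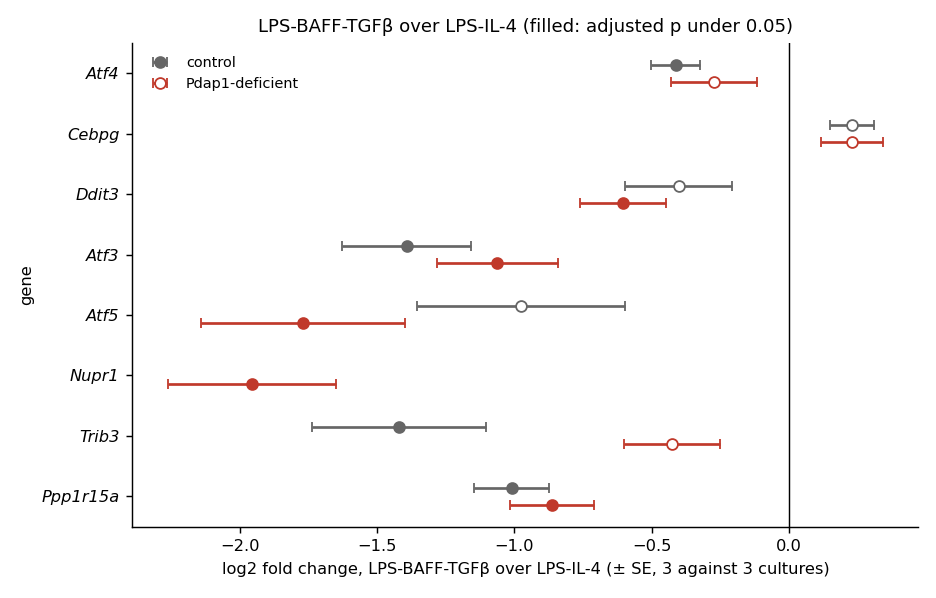
Log2 fold change of LPS-BAFF-TGFβ over LPS-IL-4 (x axis, ± SE, 3 against 3 cultures of the same mice) of the 8 genes (y axis) in control (grey) and Pdap1-deficient (red) cells, with filled points for an edgeR adjusted p under 0.05. All points but those of Cebpg lie below 0, and Nupr1 has no grey point because it was too low to test in controls.

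Whether Pdap1 deficiency acted differently in the 2 cultures was tested as the genotype by stimulation difference over all 12 libraries, without a term for the mouse. No gene of 15794 was called (0%), with 755 at an unadjusted p under 0.05 and 6 called by DESeq2. None of the 8 members tested was called. Trib3 had the lowest unadjusted p among them: its genotype difference was 0.97 ± 0.34 larger with LPS-BAFF-TGFβ (95% interval 0.23 to 1.71, edgeR unadjusted p = 0.0138, adjusted p = 0.983). Atf5 went the other way at -0.78 ± 0.58 (-2.03 to 0.46, edgeR adjusted p = 0.983), a value that was -0.039 without the deep library of control mouse 1 and -1.33 without the LPS-BAFF-TGFβ library of Pdap1-deficient mouse 2, and Cebpg was at -0.00023 ± 0.14 (-0.29 to 0.29). For Atf4 the difference was 0.14 ± 0.20, with an interval of -0.29 to 0.56. The calls of Ddit3 and Atf5 with LPS-IL-4 alone are therefore not shown to be differences between the cultures.

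The rest of the pathway was described through lists of known genes, chosen with earlier results of these data known. The study had already named Asns, Cth, Psat1, Psph, Chac1, Slc1a4 and Slc6a9 among its raised genes. From the same libraries it had also reported a rise of Atf4 itself at the transcript level. The rise of Atf4 above and the counts of Atf4 targets below are therefore not independent of that report. Of 22 enzymes and transporters known as Atf4 targets, all were tested, 17 rose in LPS-IL-4 cultures, 18 in LPS-BAFF-TGFβ cultures, and none was called lower, with median log2 fold changes of 1.33 and 1.37. Chac1, which degrades glutathione, rose by 3.19 ± 0.16 under LPS-IL-4 and 4.69 ± 0.22 under LPS-BAFF-TGFβ (edgeR adjusted p = 1.1e-05 and 1.7e-05), from 3.76 to 34.5 CPM and from 1.08 to 29.2. The glycine transporter Slc6a9 rose by 3.46 ± 0.25 and 4.37 ± 0.30 (edgeR adjusted p = 0.000116 and 0.000197). With LPS-BAFF-TGFβ the control means of Chac1 and Slc6a9 were only 1.08 and 0.449 CPM. There both genes passed the filter only through their Pdap1-deficient libraries. Of 19 stress regulators known as targets of Atf4 or Chop, 15 and 13 were tested. Under LPS-IL-4, 8 of the 15 rose, with a median of 0.63, beside 2.79% of all genes tested called higher. Under LPS-BAFF-TGFβ, 3 of the 13 regulators rose, with a median of 0.36, beside 0.455% of all genes tested. The 2 with the largest fold with LPS-IL-4, the lipoprotein receptor Vldlr (0.0865 ± 0.00388 CPM in controls and 5.40 ± 3.16 in Pdap1-deficient cells) and the secreted glycoprotein Stc2 (0.0274 ± 0.0475 and 1.59 ± 0.552), were near 0 in the controls, and no fold is given for them. Both passed the filter with LPS-IL-4 only through their Pdap1-deficient libraries. So did Wipi1, another of the 8, with a control mean of 0.313 CPM. With LPS-BAFF-TGFβ the same held for Vegfa and Vldlr, both among the 3 called, with control means of 0.428 and 1.007 CPM.

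Few relatives and partners of Atf4 were called, with medians of -0.35 to 0.26 for the ATF and CREB, bZIP and C/EBP lists in the 2 stimulations. Among 14 other genes of the ATF and CREB family, 1 rose of 11 tested under LPS-IL-4 and the same gene of 10 tested with LPS-BAFF-TGFβ: Jdp2, a bZIP repressor that dimerizes with ATF and Jun proteins, at 2.63 ± 0.27 (edgeR adjusted p = 0.00101) and 2.11 ± 0.34 (0.0325). Among 16 other bZIP genes whose products can pair with Atf4, 8 were tested. Nfe2l1, a regulator of proteasome genes, rose with LPS-IL-4 (0.63 ± 0.09, edgeR adjusted p = 0.00649) and was at 0.73 ± 0.16 with LPS-BAFF-TGFβ (0.138). Batf, an AP-1 family factor needed for class switching, fell by 0.94 ± 0.15 with LPS-IL-4 (edgeR adjusted p = 0.00875) and was at -0.88 ± 0.16 with LPS-BAFF-TGFβ (0.0692). No bZIP gene of this list was called with LPS-BAFF-TGFβ by edgeR, with 4 at an unadjusted p under 0.05 and 2 called by DESeq2. Of 4 other C/EBP genes 2 were tested, and none was called in either stimulation by edgeR, by DESeq2 or at an unadjusted p under 0.05. In the short list of Tribbles and Nupr relatives, with medians of 1.16 and 0.05, Trib2, a pseudokinase relative of Trib3, rose with LPS-IL-4 (1.47 ± 0.21, edgeR adjusted p = 0.00613) and was at 0.50 ± 0.18 with LPS-BAFF-TGFβ (0.407).

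Upstream of Atf4, none of the 11 tested genes of 12 for eIF2 kinases, eIF2 and its phosphatase was called in either stimulation by edgeR or DESeq2, with 4 and 2 at an unadjusted p under 0.05. Their log2 fold changes ran from -0.35 to 0.31 under LPS-IL-4 and from -0.30 to 0.28 under LPS-BAFF-TGFβ. Targets of the other arms of the unfolded protein response, Ire1 and Atf6, were mixed: of 16 tested, 3 rose and 1 fell with LPS-IL-4, with a median of -0.10. Sec24d, a coat protein of vesicles leaving the endoplasmic reticulum, rose by 1.17 ± 0.18 (edgeR adjusted p = 0.00802), Ern1, which encodes the sensor Ire1, by 0.55 ± 0.12 (0.0297), and the chaperone cofactor gene Sdf2l1 fell by 0.64 ± 0.13 (0.0261). With LPS-BAFF-TGFβ none of the 16 was called by edgeR, with 7 at an unadjusted p under 0.05 and 1 called by DESeq2, and the median was -0.14. Prdm1, the plasmablast factor Blimp1, rose with LPS-IL-4 (1.82 ± 0.16, edgeR adjusted p = 0.000323), as 1 of 6 plasmablast genes tested, and was at 0.28 ± 0.21 with LPS-BAFF-TGFβ (0.624). The other 5 were not called with LPS-IL-4, and their differences had both signs: Sdc1, the plasma cell surface marker CD138, was at -0.76 ± 0.23 (edgeR adjusted p = 0.0858), Mzb1 at -0.14 ± 0.25 and Irf4 at 0.30 ± 0.11. The 7 plasmablast genes listed summed to 629 to 679 CPM in control and 750 to 898 CPM in Pdap1-deficient LPS-IL-4 libraries, and to 470 to 530 and 478 to 529 CPM with LPS-BAFF-TGFβ. Most of the LPS-IL-4 sums came from Irf4 (mean 296 CPM in control and 366 in Pdap1-deficient cells) and Xbp1 (313 and 341). Neither of these was called (edgeR adjusted p = 0.150 and 0.577). The part of the difference between the sums in the LPS-IL-4 values was not tested. Among 10 B cell markers, Fcer2a (CD23) fell by 0.92 ± 0.11 with LPS-IL-4 (edgeR adjusted p = 0.00214) and its LPS-BAFF-TGFβ difference was -0.50 ± 0.15 (0.309). No other B cell marker was called in either stimulation by edgeR. With LPS-IL-4, 7 of the 10 had positive differences and the list median was 0.06. With LPS-BAFF-TGFβ, 5 of the 10 did and the median was -0.04.

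**Figure D4:**
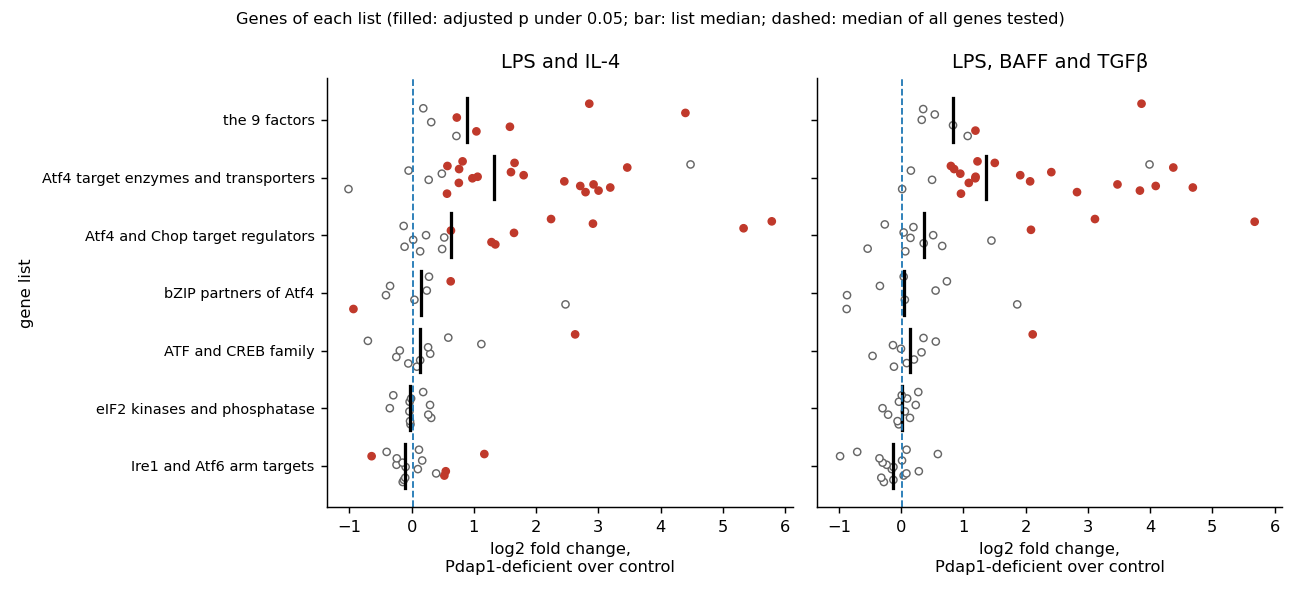
Log2 fold change of Pdap1-deficient over control (x axis) of each tested gene in 7 lists (y axis), with LPS-IL-4 on the left and LPS-BAFF-TGFβ on the right, filled points for an edgeR adjusted p under 0.05, a bar at each list's median and a dashed line at the median of all genes tested. The Atf4 target enzymes and transporters have medians of 1.33 and 1.37, whereas the eIF2 kinases and phosphatase stay between -0.35 and 0.31.

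The genes whose profile over the 12 libraries was most like that of Atf4 were found by the root mean square difference of log2 CPM, each gene centred on its own mean, among the 15794 genes tested in the 12-library fit. The 5 closest genes outside the 9 were Bcat1 (0.119), which transfers amino groups from branched-chain amino acids, Psph (0.121) and Psat1 (0.156) of serine synthesis, Mthfd2 (0.145) of mitochondrial folate metabolism, and Cars (0.151), the cysteinyl-tRNA synthetase. All 5 were called higher in both stimulations, at 0.76 to 1.06 on the log2 scale under LPS-IL-4 and 1.05 to 1.49 under LPS-BAFF-TGFβ. They were picked for a profile like that of Atf4, which rose in both, so these calls restate the choice and are no separate result. Among the members, Ddit3 was closest to Atf4 (0.347, place 61 of 15793), followed by Cebpg (0.500, place 611), Ppp1r15a (0.534, place 1189) and Atf3 (0.588, place 2988). Atf5 (0.824), Trib3 (1.20) and Nupr1 (1.41) lay farther from it than the median gene (0.691). The measure counts a larger change in the same direction as a difference. Trib3 rose by 2.85 and 3.86 and Nupr1 by 4.40 with LPS-IL-4, against 1.04 and 1.19 for Atf4. The libraries share mice and stimulations, so this is a description of likeness over these 12 points.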

How the data were processed

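RNA-seq was measured in 12 libraries, 3 mice per genotype and stimulation. The authors trimmed reads with Trim Galore 0.6.1, aligned them to GRCm38 with STAR 2.6 and counted them per gene with HTSeq 0.9.1 (versions from the submitters' processing notes), and the deposited counts per gene were used here. A deposited table of the same counts divided by size factors was not used. The annotation release and the strand setting of the counting are not given in the sources used here, so reads of overlapping genes on opposite strands may not be separated. The labels name a stranded mRNA kit, the study's methods a total RNA kit after removal of ribosomal RNA.

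All 55536 Ensembl IDs were named through GENCODE M21. The 9 genes, the lists and the tests were chosen with earlier results of these data known. Of 165 list symbols 164 were matched. The locus of the Cre allele is not reported here. Genotype came from the labels and the mouse number from the titles and the description of the series.

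Genes passing filterByExpr were normalized by TMM and tested with edgeR 4.0.16 in R 4.3.3 (robust quasi-likelihood F test, all genes, Benjamini-Hochberg adjusted p under 0.05). Each comparison used its own 6 libraries, the genotype by stimulation difference all 12. The SE is the log2 fold change over the root of F. CPM use 1 TMM scaling over the 12 libraries. Median biological coefficients of variation were 17.2% (LPS-IL-4) and 20.9% (LPS-BAFF-TGFβ), and counting intervals cover counting error only. No pair of libraries of a group was a copy (chi-square per degree of freedom at least 6.32). The scripts were tested on simulated counts.

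Named genes were the 9 members, Pdap1, up to 2 genes called in each direction with the largest change with LPS-IL-4 from each list, and the 5 genes nearest to Atf4. Low-count list genes were left to counts. Marker lists are given as summed CPM.

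Alternatives were DESeq2 1.42.0, its size factors in edgeR, no filter, at least 10 counts in every library, the replicate number as a block, thinning to 4579793 counts, all 12 libraries in 1 fit, and leaving out each library. The description of the series gives the same mouse numbers under both stimulations, so the same mice are in both arms (same-number correlation of deviations 0.579, 0.622 and 0.293 in Pdap1-deficient and -0.181, 0.341 and -0.0228 in control mice). The main stimulation and genotype by stimulation fits had no term for the mouse. Their SE and adjusted p therefore leave the pairing out, and the mouse entered only as a block among the alternatives. Control and Pdap1-deficient mice share only a number.

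Promoters of 250 bases before and 50 after the start came from RefSeq (GRCm38.p6), and all 9 genes had at least 1.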

Additional observations from a re-analysis of the deposited data

How the results depend on the processing

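Each member tested in a genotype or stimulation comparison kept its direction there under each alternative that could test it; Cebpb was tested in none, and Nupr1 neither by genotype with LPS-BAFF-TGFβ nor by stimulation in controls. Counts of calls moved more. With LPS-IL-4, 741 genes were called higher or lower, 1217 with DESeq2, 1694 without a filter and 69 to 1759 when 1 library was left out, fewest without control mouse 2 and most without Pdap1-deficient mouse 1; 5 members were called, and 3 to 6 when 1 library was left out. With LPS-BAFF-TGFβ, 65 genes were called, 172 with DESeq2, 257 without a filter, 133 with all 12 libraries in 1 fit and 19 to 116 when 1 library was left out, fewest without control mouse 3 and most without control mouse 1; 2 members were called, 4 with DESeq2 or without a filter (Atf3 and Nupr1 being added with DESeq2), 1 with at least 10 counts in every library and 1 to 3 when 1 library was left out. Without a filter Atf3 was called in both stimulations (adjusted p = 0.00415 and 0.0140). Leaving out 1 library gave 1608 to 4858 genes and 2 to 5 members by stimulation in controls, and 908 to 2235 genes and 2 to 5 members in Pdap1-deficient cells, where the replicate block gave 3854 genes. Control and Pdap1-deficient mice share only a number; the replicate block there added Atf3 with LPS-IL-4 (0.69, adjusted p = 0.0263) and changed no other member's genotype call. For the genotype by stimulation difference DESeq2 called 6 genes, the fit without a filter 1 and the fits without 1 library 0 to 1. The difference of Cebpg, at -0.00023, turned positive with DESeq2 (0.0146), its size factors (0.0131), the replicate block (0.0061) and thinning (0.0315), and ran from -0.097 to 0.054 when 1 library was left out; that of Atf4 ran from -0.0035 to 0.28. The cause of these changes was not tested. Depth limits Nupr1, Cebpb and, with LPS-BAFF-TGFβ, Atf5, which rest on few counts, and with 3 mice per group small differences such as those of Cebpg and Ppp1r15a have intervals that reach from near 0 to over 0.4.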
